A study of Mus musculus with 4 samples.

Results

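Natural killer (NK) receptor genes were followed in CD8+ T cells taken from B16-GP33 tumours of mice at day 21. The set holds 10 of the 24537 genes in the deposited expression table: the 7 killer cell lectin-like receptor genes Klrb1c, Klrc1, Klrc2, Klrd1, Klre1, Klrg1 and Klrk1, the kinase-like receptor gene Styk1, the granule membrane gene Nkg7 and the chemokine receptor gene Cx3cr1. They were chosen by name as NK-type genes of CD8+ T cells, with the difference between the groups already known, so that difference is described here and not tested. The control group was labelled EV and the other group ACSS2NLS, with 2 libraries in each. Every sample carried the label B16-GP33 tumor, and the cells were labelled CD8+. B16 cells are mouse melanoma cells, here with GP33, a viral peptide that CD8+ T cells can recognise. ACSS2 is an enzyme that turns acetate into acetyl-CoA, and NLS usually stands for a nuclear localisation signal. The labels give neither the strain nor the age of the mice, nor how the cells were made to carry EV or ACSS2NLS. Nothing in them ties the samples to separate mice, so each SE and p-value reflects the spread between these libraries alone, which may be technical.

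Killer cell lectin-like receptors are surface proteins best known from NK cells, where activating and inhibitory members together set whether the cell kills a target. CD8+ T cells that have met antigen take up part of the same repertoire, along with the granule machinery for killing. Most of the receptor genes lie side by side in a stretch of chromosome 6 called the NK gene complex, and several arose there by gene duplication.

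Depth was 46000000 to 49300000 tags per library (rounded to 100000). Of these, 39.6% to 41.9% were counted, on the sense strand of exons with a single transcript per gene. Levels are given in FPKM, which corrects for library size and gene length and so allows levels of different genes to be compared. Acss2 stood at 3.66 and 3.92 FPKM in EV and at 80.7 and 86.3 FPKM in ACSS2NLS, so the labels matched the gene. The CD8 T cell markers were high in every library, with summed levels of 2123 and 1769 FPKM in EV and of 2050 and 1589 FPKM in ACSS2NLS. The 11 markers of NK cells and innate lymphoid cells summed to 12.4 and 12.1 FPKM in EV and to 10.7 and 8.76 FPKM in ACSS2NLS, and none of them was at 0 in every library. Ncr1, which defines NK cells, was at 1.08 and 1.26 FPKM in EV and at 0.930 and 0.711 FPKM in ACSS2NLS. Of 9 listed markers of NKT and gamma-delta T cells only 5 were measured, so the sum does not cover the others. These 5 summed to 0.141 to 0.5 FPKM, with Zbtb16, which defines NKT cells, at no more than 0.024 FPKM. Myeloid markers summed to 107 and 618 FPKM in EV and to 229 and 970 FPKM in ACSS2NLS, and melanoma markers to 5.57 and 38.6 FPKM and to 11.4 and 139 FPKM. Both replicate 2 libraries therefore held more myeloid and melanoma RNA than the replicate 1 library of the same group. In such bulk samples, fewer cells of a type and less RNA per cell cannot be told apart.

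The regulatory sequence just before the start was available for 7 of the 10 genes, all but Klrd1, Klrg1 and Styk1. The results turn on 4 of these: Klrc1 and Klrc2 as neighbours of 1 gene family with very different levels, Nkg7 as the gene with the highest level, and Klrb1c as a gene whose groups did not overlap. Each is the 250 bases before the gene start in RefSeq (GRCm38.p6), 5′ to 3′ on the strand of the gene. Capitals mark the RUNX motif TGTGGT, which reads ACCACA where it lies on the opposite strand, and in Nkg7 also the T-box motif GGTGTG. The regions are chr6:129678974-129679223 (minus strand) for Klrc1, chr6:129660557-129660806 (minus strand) for Klrc2, chr7:43436888-43437137 (plus strand) for Nkg7 and chr6:128788642-128788891 (minus strand) for Klrb1c.
Klrc1: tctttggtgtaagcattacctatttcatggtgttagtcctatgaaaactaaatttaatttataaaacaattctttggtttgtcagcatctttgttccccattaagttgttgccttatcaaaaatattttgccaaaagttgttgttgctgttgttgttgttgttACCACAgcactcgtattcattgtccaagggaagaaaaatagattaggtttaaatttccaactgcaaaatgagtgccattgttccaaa
Klrc2: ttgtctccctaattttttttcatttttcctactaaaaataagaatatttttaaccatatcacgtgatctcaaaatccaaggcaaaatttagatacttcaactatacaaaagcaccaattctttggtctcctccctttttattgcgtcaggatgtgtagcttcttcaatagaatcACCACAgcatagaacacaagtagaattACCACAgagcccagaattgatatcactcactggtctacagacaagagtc
Nkg7: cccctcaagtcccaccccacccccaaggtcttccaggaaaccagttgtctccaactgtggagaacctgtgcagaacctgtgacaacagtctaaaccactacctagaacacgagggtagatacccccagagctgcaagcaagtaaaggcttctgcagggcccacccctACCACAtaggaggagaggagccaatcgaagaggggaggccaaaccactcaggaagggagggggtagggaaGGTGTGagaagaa
Klrb1c: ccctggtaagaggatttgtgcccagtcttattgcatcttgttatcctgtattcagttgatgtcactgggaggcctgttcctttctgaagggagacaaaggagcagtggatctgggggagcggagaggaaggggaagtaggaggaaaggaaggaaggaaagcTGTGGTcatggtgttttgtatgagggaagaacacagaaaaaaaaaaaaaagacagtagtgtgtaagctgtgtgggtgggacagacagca

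In the window from 250 bases before to 50 bases after the start, read on both strands, TGTGGT was found for 6 of the 7 genes. The same letters were in 16.8% of all 32851 RefSeq promoters of that length and in 13.0% of the 7491 promoters of genes tested here. The motif began 87 bases before the start in Klrc1, 83 in Nkg7 and 89 in Klrb1c, and Klrc2 held it at 76 and 49. It lay 129 bases before the start of Klrk1 and 54 before that of Cx3cr1, and Klre1 had none. GGTGTG was found for 1 of the 7 genes, Nkg7, against 19.0% of all promoters. The TCF/LEF motif CTTTGA was found for 1, Klrk1, against 16.0%. No match overlapped another. A match describes letters only, and no factor was measured at these sites.

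The 10 genes spanned a 1205-fold range of mean level. From highest to lowest they ran Nkg7, Klrd1, Klrk1, Klrc1, Klre1, Cx3cr1, Styk1, Klrg1, Klrc2 and Klrb1c. Nkg7 ranked 3 among all 24537 genes of the table and Klrd1 ranked 82. The 5 highest genes stayed above 35 FPKM in every library, and the other 5 stayed below 10 FPKM. Among neighbours in this order, the ranges over the 4 libraries overlapped for Klrk1 and Klrc1, Cx3cr1 and Styk1, Styk1 and Klrg1, and Klrc2 and Klrb1c. Klrk1 was nonetheless above Klrc1 within each library, whereas the order of the other 3 pairs turned between libraries.

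**Figure D1:**
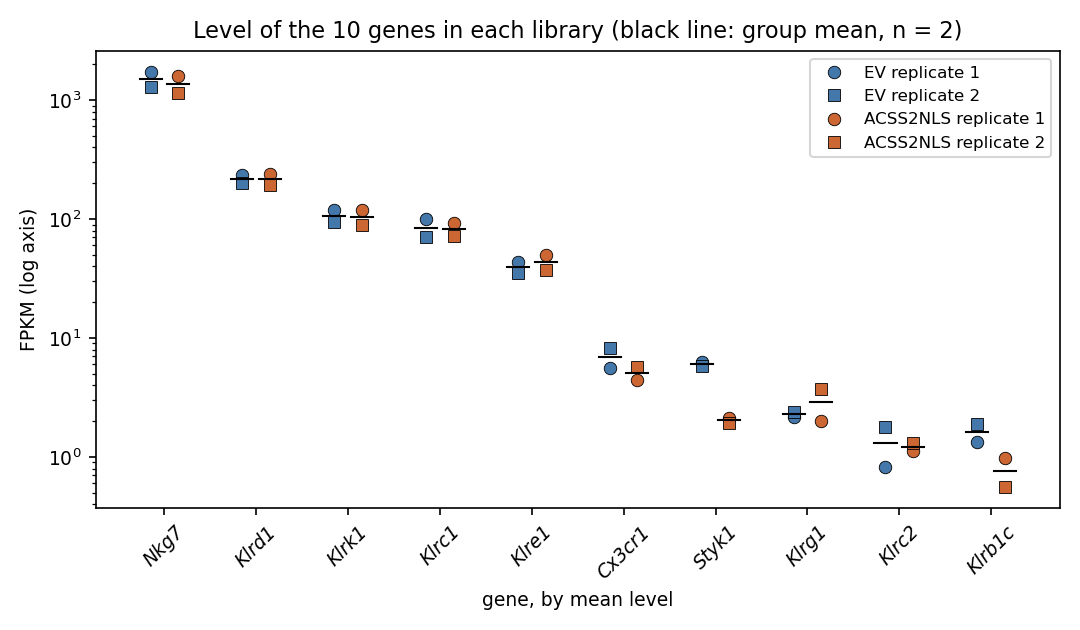
Level of each of the 10 genes in FPKM on a log axis, with 1 point per library and a black line at each group mean (n = 2). Nkg7 stands above 1000 FPKM in all 4 libraries, and Styk1 and Klrb1c are the 2 genes whose EV points all lie above their ACSS2NLS points.

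In the comparison of ACSS2NLS with EV, the groups were apart for Styk1 and Klrb1c, with ACSS2NLS the lower, and overlapped for the other 8 genes. All 10 genes passed the filter of a mean of at least 1 FPKM. Klrb1c passed it through EV, since its ACSS2NLS mean was 0.768 FPKM; the other 9 reached 1 FPKM in each group. On the log2(FPKM + 1) scale 8 genes had a lower and 2 a higher mean in ACSS2NLS, with a median change of -0.04, beside 0.02 over all 9810 genes tested, of which 46.8% were lower. Single libraries decided these counts: without EV replicate 1, 4 of the 10 were lower and the median was 0.087, and without ACSS2NLS replicate 2, 5 were lower. Without EV replicate 2 and without ACSS2NLS replicate 1 the medians were -0.17 and -0.22. For 6 genes the change was smaller than 0.2 in either direction, as it was for 67.5% of all genes tested. At an adjusted p under 0.05 (limma-trend), 0 of the 10 were called, beside 0.0204% of all genes tested. At an unadjusted p under 0.05 the count was 2, beside 5.97%. Both ACSS2NLS libraries lay below both EV libraries for 2 genes, beside 18.1% of all genes, and above them for 0, beside 19.3%. Because the set was proposed from this contrast, nothing is read from these counts.

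**Figure D2:**
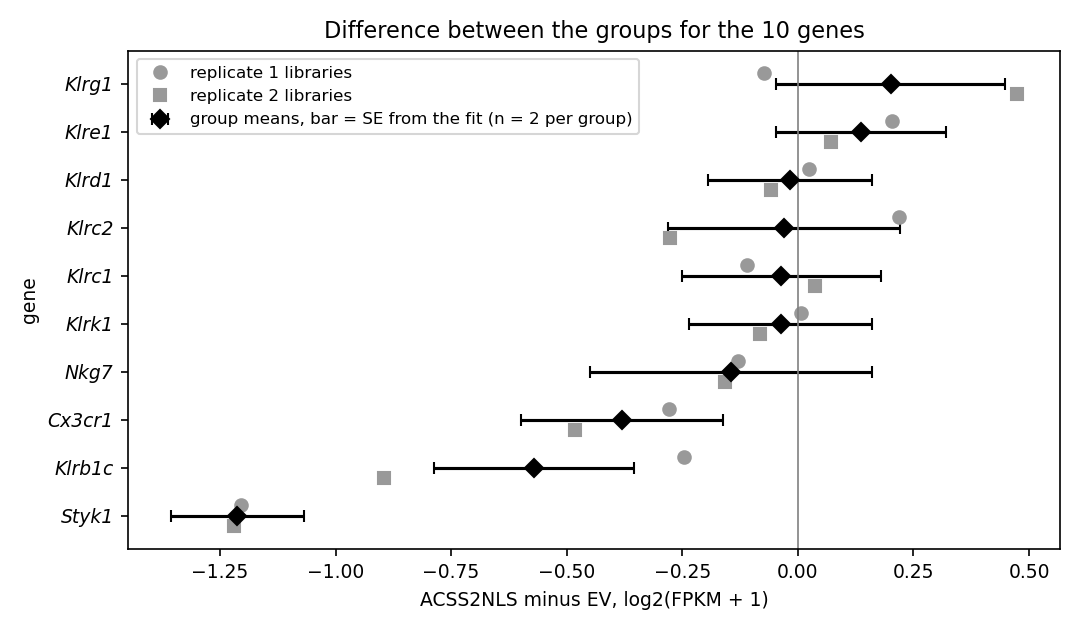
ACSS2NLS minus EV on the log2(FPKM + 1) scale for each gene, as the difference of the group means with the moderated SE of the limma-trend fit (diamonds, n = 2 per group) and as the difference within replicate number 1 (circles) and 2 (squares). Styk1 lies near -1.2 by all 3 readings, while the points of Klrd1, Klrk1, Klrc1, Klrc2 and Klrg1 fall on both sides of 0.

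Klrd1 encodes CD94, the common chain that pairs with an NKG2 chain to make a receptor for the nonclassical class I molecule Qa-1. Klrd1 (NM_010654; mm10 chromosome 6, 129591811 to 129598775, plus strand) was at 236 and 200.3 FPKM in EV and at 239.7 and 192 FPKM in ACSS2NLS. The higher and the lower library of each group were at about the same level, so the groups overlapped fully. The change was -0.02 ± 0.18 on the log2(FPKM + 1) scale, where ± gives the SE of the limma-trend fit, in which the spread of each gene is moderated by that of all genes (n = 2 per group).

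Klrc1 encodes NKG2A, the inhibitory partner of CD94. Klrc1 (NM_001136068; chromosome 6, 129666016 to 129678973, minus strand) was at 99.5 and 70.1 FPKM in EV and at 92.2 and 72.0 FPKM in ACSS2NLS, with a change of -0.04 ± 0.22. Again the replicate 1 library was the higher in each group and the groups overlapped. Klrd1 exceeded Klrc1 in every library, by 2.37-fold and 2.86-fold in EV and by 2.60-fold and 2.67-fold in ACSS2NLS.

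Klrc2 encodes NKG2C, the activating partner of CD94. Klrc2 (NM_010653; chromosome 6, 129656371 to 129660556, minus strand) was at 0.827 and 1.80 FPKM in EV and at 1.13 and 1.31 FPKM in ACSS2NLS, which came from 27, 63, 39 and 45 tags. Its group means of 1.31 ± 0.688 and 1.22 ± 0.132 FPKM (SD, n = 2) differed by less than the spread of the EV libraries, and the change was -0.03 ± 0.25. The inhibitory gene Klrc1 thus stood 65.9-fold above the activating gene Klrc2 in mean level over the 4 libraries.

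The 2 genes share part of their sequence. In the mouse annotation (GENCODE M21), 40.3% of the 50-base words of the Klrc1 transcript also occur in transcripts of other genes, mostly of Klrc2, and 52.0% of those of Klrc2 occur in Klrc3 or Klrc1. The transcripts were 88.0% identical over 689 aligned bases. The sources used here do not give how reads that fit both genes were assigned, so both levels are uncertain in that respect. The 250-base promoters of the pair were 58.0% identical over 224 aligned positions, within the 53.0% to 65.6% found between the promoters of the 7 genes.

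Klrk1 encodes NKG2D, an activating receptor for stress-induced ligands. Klrk1 (NM_001286018; chromosome 6, 129610323 to 129623864, minus strand) was at 119 and 94.2 FPKM in EV and at 119 and 88.8 FPKM in ACSS2NLS, with a change of -0.04 ± 0.20. The groups overlapped, and the gap between replicates was wider than the gap between groups. Hcst, which encodes DAP10, the signalling adaptor of NKG2D, was at 96.3 and 67.9 FPKM in EV and at 99.7 and 67.0 FPKM in ACSS2NLS (0.02 ± 0.25, adjusted p = 0.995). The ratio of Klrk1 to Hcst was 1.23 and 1.39 in EV and 1.198 and 1.33 in ACSS2NLS.

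Klre1 encodes a receptor chain that pairs with the products of Klri1 or Klri2. Klre1 (NM_153590; chromosome 6, 129578286 to 129585827, plus strand) was at 43.3 and 35.5 FPKM in EV and at 50.04 and 37.3 FPKM in ACSS2NLS, a change of 0.14 ± 0.18. Its groups overlapped, with ACSS2NLS replicate 1 the highest library. Its partners were lower: Klri2 was at 2.99 and 2.22 FPKM in EV and at 3.13 and 3.04 FPKM in ACSS2NLS (0.19 ± 0.17, adjusted p = 0.863), and Klri1 did not exceed 0.222 FPKM.

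Klrb1c encodes NK1.1, the antigen used to stain NK cells in several mouse strains. Klrb1c (NM_001159904; chromosome 6, 128778485 to 128788641, minus strand) was at 1.34 and 1.90 FPKM in EV and at 0.976 and 0.560 FPKM in ACSS2NLS. Both ACSS2NLS libraries lay below both EV libraries, and the mean was 2.11-fold lower. The levels came from 162 and 246 tags in EV and from 125 and 71 tags in ACSS2NLS. The change was -0.57 ± 0.22, made up of -0.25 between the replicate 1 libraries and -0.90 between the replicate 2 libraries. Of the transcript's 50-base words, 18.1% also occur in other genes, Gm44511 and Klrb1a above all, and Gm44511 overlaps 404 exon bases on the same strand, so its reads cannot be fully separated.

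Of the 4 NK and innate lymphoid markers past the filter, 3 had a lower mean in ACSS2NLS and 1, Klri2, a higher one (0.19 ± 0.17). Klra7 was at 1.78 and 1.79 FPKM in EV and at 1.11 and 0.602 FPKM in ACSS2NLS (-0.60 ± 0.20, adjusted p = 0.81). Klra3 was at 4.24 and 2.48 FPKM in EV and at 2.37 and 1.64 FPKM in ACSS2NLS (-0.52 ± 0.26, adjusted p = 0.81). Both encode Ly49 receptors, whose transcripts share 15.1% and 21.5% of their 50-base words with relatives. Klrb1c was higher in EV replicate 2 than in EV replicate 1, as were Klrb1f, Ncr1 and, by very little, Klra7. Klra3 and Klri2 were lower there. Both ACSS2NLS libraries lay below both EV libraries for Ncr1, Klra7 and Klra3, as for Klrb1c, beside 18.1% of all genes tested. Klri2 went the other way, beside 19.3%, and the groups of Klrb1f overlapped. Ncr1 was not among the 4 past the filter and was picked after its values were seen. Of the other markers below the filter, Klra1, Klra4, Klra8, Klra9 and Klrb1b had overlapping groups. Klra4 and Klra9 had a higher mean in ACSS2NLS, and Klra1, Klra8 and Klrb1b a lower one. The part of NK cell RNA in the level of Klrb1c was not tested.

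Klrg1 encodes an inhibitory receptor for cadherins and marks short-lived effector cells. Klrg1 (NM_016970; chromosome 6, 122270597 to 122282833, minus strand) was at 2.18 and 2.41 FPKM in EV and at 2.02 and 3.74 FPKM in ACSS2NLS, a change of 0.20 ± 0.25. The ACSS2NLS libraries held both the lowest and the highest value, so the EV range lay inside theirs. The difference was -0.07 between the replicate 1 libraries and 0.47 between the replicate 2 libraries.

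Styk1 encodes a membrane protein with a tyrosine kinase-like domain and no lectin domain. Styk1 (NM_172891; chromosome 6, 131299144 to 131313827, minus strand) was at 6.23 and 5.85 FPKM in EV and at 2.14 and 1.94 FPKM in ACSS2NLS, from 964, 971, 351 and 316 tags. The libraries of each group lay close together, the groups were apart, and the mean was 2.96-fold lower in ACSS2NLS. The change was -1.21 ± 0.14, with -1.21 between the replicate 1 libraries and -1.22 between the replicate 2 libraries. Of the 9810 genes tested, 19 had a lower log2 change. Because Styk1 was chosen with this difference known, nothing is read from that rank. None of its 50-base words occurs in another gene.

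Relative to Klrk1 in the same library, Styk1 stood at 0.0525 and 0.0621 in EV and at 0.0179 and 0.0219 in ACSS2NLS. With the mean level of the myeloid markers other than Tyrobp and Fcer1g as a covariate its change was -1.203, on 1 residual degree of freedom. Magohb, the gene next to Styk1 at a distance of 5.90 kb, chosen for mention after its values were seen, had a mean of 15.9 FPKM and a change of -0.0029. The parts of cell content and of the surrounding region in the change of Styk1 were not tested.

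Nkg7 encodes a membrane protein of cytotoxic granules that is needed for their release. Nkg7 (NM_024253; chromosome 7, 43437138 to 43438246, plus strand) was at 1738 and 1285 FPKM in EV and at 1589 and 1151 FPKM in ACSS2NLS, a change of -0.14 ± 0.30. The groups overlapped, and the replicate 1 library was the higher in both. Klrd1, the next gene in the order, reached 15.1% of the mean of Nkg7.

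Cx3cr1 encodes the receptor for the chemokine CX3CL1 and is carried by effector T cells as well as by monocytes and macrophages. Cx3cr1 (NM_009987; chromosome 9, 120048683 to 120068296, minus strand) was at 5.57 and 8.30 FPKM in EV and at 4.42 and 5.66 FPKM in ACSS2NLS, a change of -0.38 ± 0.22. The groups overlapped by a narrow margin, with ACSS2NLS replicate 2 just above EV replicate 1. Within replicate numbers the difference was -0.28 and -0.48. The myeloid markers were also higher in replicate 2 of each group. With the same myeloid covariate as for Styk1 the change of Cx3cr1 was -0.43, again on 1 residual degree of freedom. The part of myeloid RNA in the level of Cx3cr1 was not tested.

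Differences between replicates were larger than differences between groups for most of the abundant genes. Nkg7, Klrd1, Klrk1, Klrc1, Klre1 and Styk1 were lower in replicate 2 than in replicate 1 in both groups, 6 of 10 genes, beside 26.5% of all genes tested. For Klrd1 the difference was -0.23 in EV and -0.32 in ACSS2NLS, and for Nkg7 it was -0.44 and -0.46. The 12 CD8 T cell markers past the filter went the same way, with medians of -0.23 and -0.40 and 9 of them lower in both groups. The myeloid markers went the other way, with medians of 1.96 and 1.52 and 20 of 21 higher in both groups, as did 6 of 6 melanoma markers (1.52 and 2.75). The part of cell content in the receptor levels was not tested.

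**Figure D3:**
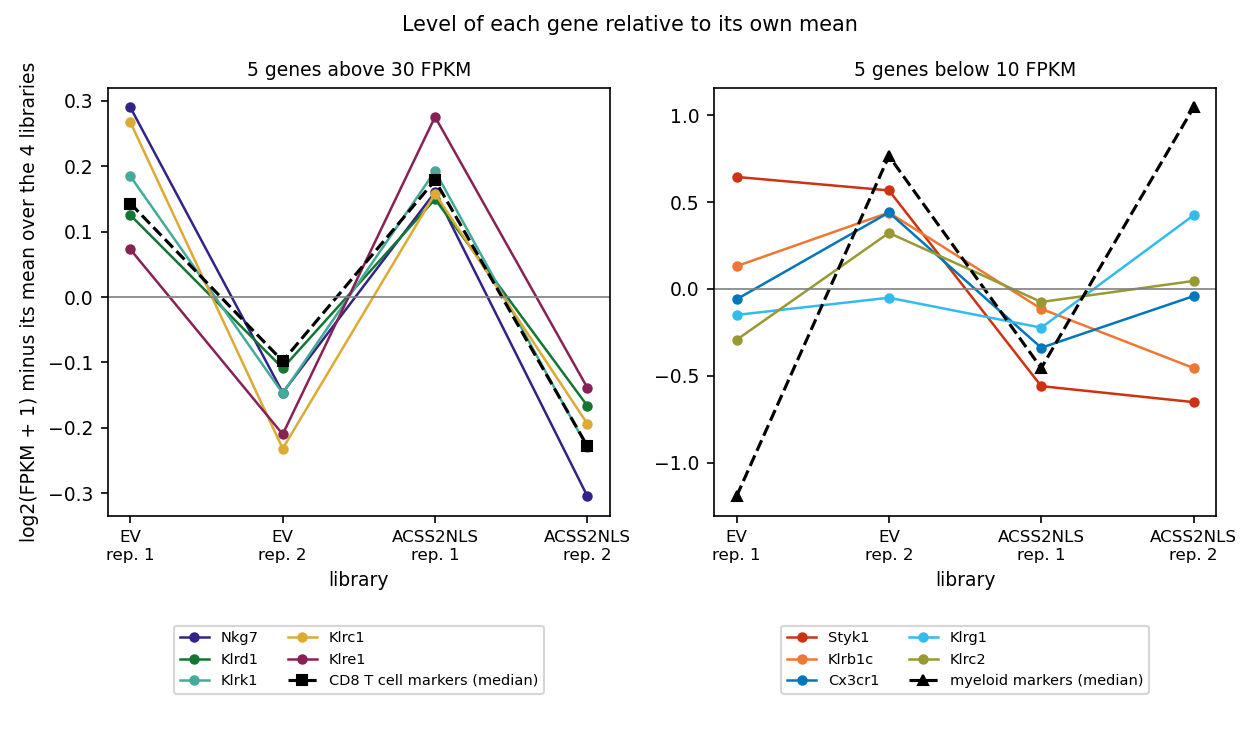
Level of each gene in each library relative to its own mean over the 4 libraries, on the log2(FPKM + 1) scale, for the 5 genes above 30 FPKM (left, with the median of 12 CD8 T cell markers) and the 5 below 10 FPKM (right, with the median of 21 myeloid markers). Lines only join the points of 1 gene; the 5 abundant genes are high in both replicate 1 libraries and low in both replicate 2 libraries, as are the T cell markers.

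Levels relative to Cd3g, a chain of the T cell receptor complex, ordered the libraries differently. The ratio of Klrd1 to Cd3g was 0.479 and 0.519 in EV and 0.517 and 0.599 in ACSS2NLS. For Klrk1 it was 0.241 and 0.244 in EV and 0.258 and 0.277 in ACSS2NLS, and for Klre1 it was 0.0880 and 0.0918 in EV and 0.108 and 0.116 in ACSS2NLS. On this scale both ACSS2NLS libraries were above both EV libraries for Klrk1 and Klre1, whereas in FPKM the groups overlapped. How many of all genes come apart in this way when divided by Cd3g was not computed, so nothing is read from it. The ratio of Klrc1 was 0.202 and 0.182 in EV and 0.199 and 0.224 in ACSS2NLS, and that of Nkg7 was 3.53 and 3.33 in EV and 3.43 and 3.58 in ACSS2NLS, so the groups of Klrd1, Klrc1 and Nkg7 overlapped on this scale too. Scaling by all 13 CD8 T cell markers instead gave changes of -0.14 for Klrk1 and 0.04 for Klre1. With the 12 markers of at least 5 FPKM, chosen after seeing the data, the changes were 0.02 and 0.19. The sign for Klrk1 thus turned with the choice of markers. Cd3g itself was at 492 and 386 FPKM in EV and at 464 and 321 FPKM in ACSS2NLS (-0.18 ± 0.25, adjusted p = 0.906). The ratio of Klrd1 to Klrk1 was 1.98 and 2.13 in EV and 2.01 and 2.17 in ACSS2NLS.

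Of the 10 genes, 7 lie in the NK gene complex, from Klrb1c to Styk1, a span of 2535 kb that holds 58 genes of the table. Klrg1 lies 6496 kb before Klrb1c on the same chromosome. The 4 members of at least 10 FPKM, Klre1, Klrd1, Klrk1 and Klrc1, all lie within 101 kb, a stretch with 6 genes. Klrc2, at 1.27 FPKM in mean, is in the same stretch, 5.46 kb from Klrc1. Styk1 lies at the far end, 1620 kb beyond Klrc1, and Klrb1c at the near end, 789.6 kb before Klre1.

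**Figure D4:**
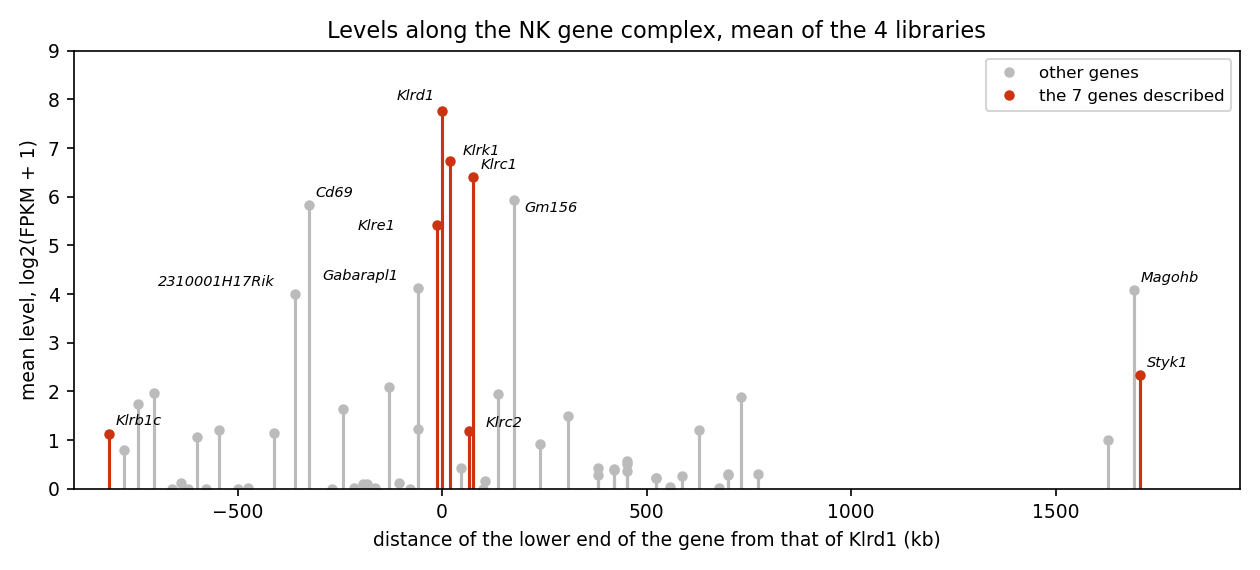
Mean level over the 4 libraries, log2(FPKM + 1), of the 58 genes from Klrb1c to Styk1, against the distance in kb between the lower-coordinate end of the gene and that of Klrd1; red marks the 7 genes described and grey the 51 others, with names where the mean is at least 10 FPKM. The 4 tall red lines stand within 101 kb, and Styk1 and Klrb1c stand at the ends.

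Of the 51 other genes of the complex, 17 had a mean of at least 1 FPKM and 5 of at least 10 FPKM. Among the 17, 9 had a lower and 8 a higher mean in ACSS2NLS, with a median of -0.0029, and 0 passed the test. The median was 0.27 without EV replicate 2 and 0.17 without ACSS2NLS replicate 1. Gm156, which RefSeq lists as a synonym of the receptor gene Klrh1, was the highest of them, at 103 and 49.4 FPKM in EV and at 57.3 and 31.7 FPKM in ACSS2NLS (-0.73 ± 0.42, adjusted p = 0.821). Its groups overlapped, and replicate 2 was the lower library in each, as for the abundant receptors. The uncharacterised gene 2310001H17Rik was at 10.2 and 13.4 FPKM in EV and at 20.5 and 15.7 FPKM in ACSS2NLS (0.57 ± 0.19, adjusted p = 0.81). The complex genes Clec2e, Clec2f, Tmem52b, 4922502D21Rik, Mir7649 and Mir680-1 were listed at 0 in every library.

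Other NK-type receptors, from a list that excludes the 10 genes, were measured for 34 genes, 19 of them past the filter. Some of them, such as Gm156, Klra3 and Klra7, also count among the other genes of the complex. Of the 19, 11 had a lower and 8 a higher mean in ACSS2NLS (median -0.16), and 0 passed. The median turned to 0.03 without EV replicate 2 and was -0.0077 without ACSS2NLS replicate 1. Il12rb2, a chain of the interleukin-12 receptor, was at 30.5 and 32.3 FPKM in EV and at 13.0 and 18.5 FPKM in ACSS2NLS (-0.97 ± 0.18, adjusted p = 0.75). Crtam, an adhesion receptor of activated CD8+ and NK cells, was at 59.4 and 87.6 FPKM in EV and at 106 and 118 FPKM in ACSS2NLS (0.63 ± 0.21, adjusted p = 0.81). For both genes, named for a small unadjusted p, the groups did not overlap, in opposite directions. Of the 19, both ACSS2NLS libraries lay below both EV libraries for 6, beside 18.1% of all genes. They lay above them for 4, beside 19.3%. Slamf7, a receptor of the SLAM family, was at 17.7 and 16.1 FPKM in EV and at 21.7 and 23.8 FPKM in ACSS2NLS (0.41 ± 0.12, adjusted p = 0.81). Il2rb, the interleukin-2 receptor beta chain and the most abundant gene of the list, was at 338 and 299.7 FPKM in EV and at 260.0 and 267 FPKM in ACSS2NLS (-0.27 ± 0.15, adjusted p = 0.813).

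Adaptors and early signalling proteins of NK receptors were mostly at lower means. Of the 21 of 22 past the filter, 14 were lower and 7 higher (median -0.14, or -0.22 without EV replicate 2), 0 passed, and for 10 both ACSS2NLS libraries lay below both EV libraries, beside 18.1% of all genes, and for 1 above them, beside 19.3%. Lck, the kinase that starts receptor signalling and the most abundant of them, was at 390.2 and 321 FPKM in EV and at 307 and 263 FPKM in ACSS2NLS (-0.32 ± 0.18, adjusted p = 0.821). Sh2d1a, which encodes the SLAM adaptor SAP, went the other way, at 23.05 and 24.6 FPKM in EV and at 45.03 and 33.9 FPKM in ACSS2NLS (0.69 ± 0.16, adjusted p = 0.775). Pik3r1, a regulatory subunit of phosphoinositide 3-kinase, had a change of -0.47 ± 0.13 and the adaptor Lat2 one of -0.40 ± 0.11 (adjusted p = 0.81 for each). Tyrobp, which encodes DAP12, the adaptor of CD94/NKG2C, was at 9.61 and 34.1 FPKM in EV and at 17.6 and 49.1 FPKM in ACSS2NLS (0.66 ± 0.69, adjusted p = 0.875). Tyrobp is also a myeloid gene and was higher in replicate 2 of both groups, like the other myeloid markers.

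Ligands of these receptors and of their relatives were mostly near 0, as 13 of 16 measured stayed below 1 FPKM in every library. H2-T23, which encodes Qa-1, was far above the others, at 189 and 201 FPKM in EV and at 194 and 193 FPKM in ACSS2NLS (-0.01 ± 0.13, adjusted p = 0.995). Ulbp1, a ligand of NKG2D, was at 3.70 and 3.47 FPKM in EV and at 1.76 and 2.64 FPKM in ACSS2NLS (-0.53 ± 0.19, adjusted p = 0.81). Clec2d, which encodes a ligand of the NKR-P1 family, was at 0.865 and 0.605 FPKM in EV and at 2.16 and 1.23 FPKM in ACSS2NLS (0.62 ± 0.23, adjusted p = 0.81). With 3 genes past the filter, 2 lower and 1 higher (median -0.01), 0 passed. The NKG2D ligand genes Raet1e and H60b did not exceed 0.016 and 0.329 FPKM, Cdh1, a ligand of KLRG1, did not exceed 0.671 FPKM, Cx3cl1 did not exceed 0.152 FPKM, and H60c and Clec2f were listed at 0 in every library.

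Transcription factors of NK-type and effector programmes were split. Of 17 past the filter, 8 were lower and 9 higher (median 0.09), and 0 passed. The median turned to -0.02 without EV replicate 2 and to -0.12 without ACSS2NLS replicate 2. Eomes, a T-box factor of NK and CD8+ T cells, was at 4.23 and 5.52 FPKM in EV and at 9.34 and 9.16 FPKM in ACSS2NLS (0.81 ± 0.16, adjusted p = 0.775). Id2, which NK cells need for their development, was at 364 and 318 FPKM in EV and at 217 and 175 FPKM in ACSS2NLS (-0.80 ± 0.17, adjusted p = 0.775). Bhlhe40 was at 447 and 228 FPKM in EV and at 161 and 118 FPKM in ACSS2NLS (-1.21 ± 0.35, adjusted p = 0.81). The groups did not overlap for any of these 3, which were named for the smallest unadjusted p of the list. Of the 17, both ACSS2NLS libraries lay below both EV libraries for 5, beside 18.1% of all genes. They lay above them for 5, beside 19.3%.

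Cytotoxic granule genes, which work with Nkg7, had 15 of 22 means lower and 7 higher (median -0.16), and 0 passed. The median was 0.0035 without ACSS2NLS replicate 1 and -0.25 without ACSS2NLS replicate 2. Serpinb9, a granzyme inhibitor that protects the killer cell itself, was at 84.5 and 91.8 FPKM in EV and at 62.0 and 67.8 FPKM in ACSS2NLS (-0.44 ± 0.12, adjusted p = 0.81). Prf1, which encodes perforin, was at 359.7 and 256 FPKM in EV and at 223 and 236 FPKM in ACSS2NLS (-0.40 ± 0.20, adjusted p = 0.81). Both ACSS2NLS libraries lay below both EV libraries for 9 of the 22, Gzmb among them (-0.83 ± 0.29, adjusted p = 0.81), beside 18.1% of all genes, and above them for 1, beside 19.3%. TGTGGT, the motif of 6 of the 7 promoters, was in 12 of 20 promoters of the granule genes, 5 of 13 of the other NK-type receptors, 5 of 14 of the myeloid markers and 1 of 7 of the CD8 T cell markers. Of the other lists it was in 2 of 17 adaptors, 1 of 14 transcription factors, 1 of 13 complex neighbours, 1 of 3 ligands, 0 of 3 NK and innate lymphoid markers, 1 of 3 dendritic cell markers, 1 of 2 melanoma markers, 0 of 2 CD4 and regulatory T cell markers and 0 of 3 stromal, endothelial and red blood cell markers.

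**Figure D5:**
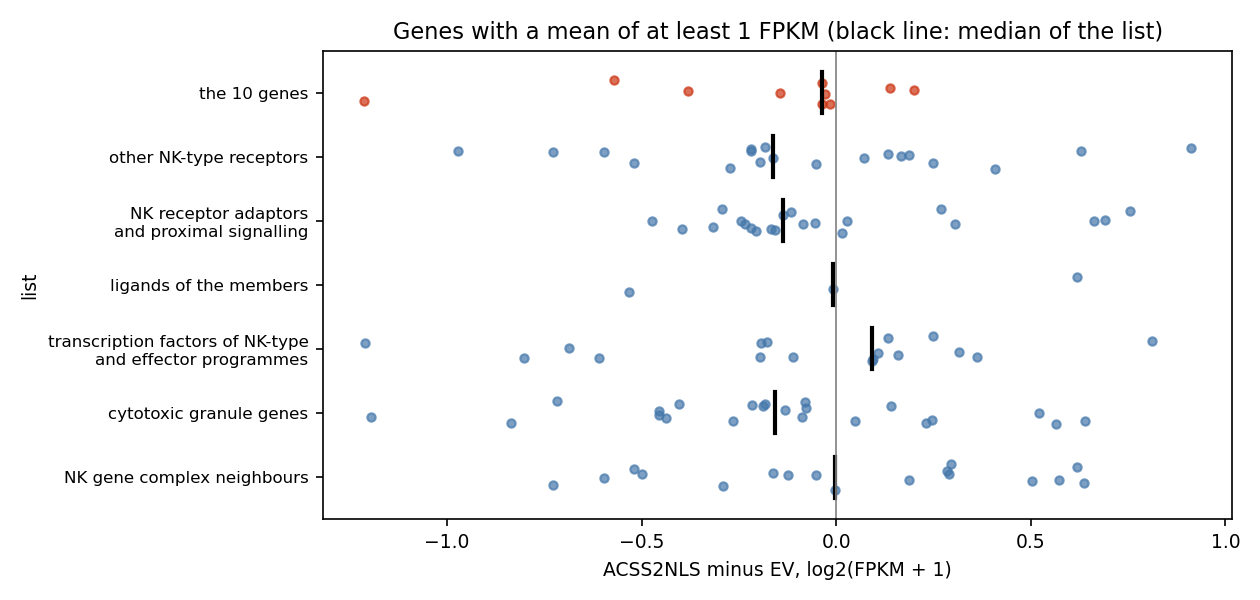
ACSS2NLS minus EV on the log2(FPKM + 1) scale, with a black line at the median of each list. Each list has 1 point per gene with a mean of at least 1 FPKM. The lists share some genes, such as Gm156, which has a point in each of its lists. The vertical scatter within a row only separates the points. The 10 genes have a median of -0.04 and the other lists medians from -0.16 to 0.09, and Styk1 is the leftmost of the 10.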

How the data were processed

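RNA was purified and amplified from low input with the SMART-Seq v4 kit, per the labels' protocols. STAR 2.5.3a, HOMER and mm10 were used, per the submitters' processing notes. The deposited values are FPKM per RefSeq gene, counted by HOMER over exons on the sense strand with a single transcript per gene, per the file headers; the sources used here do not say whether the libraries kept strand. The columns, named Acss2WT and Acss2OE with replicate numbers, were read as EV and ACSS2NLS. The header names 8 tag directories, and the table has 4 library columns, all used.

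Count tests do not apply to FPKM. Times gene length, low values fell on whole tags (100% within 0.1 of a step, genes of 500 to 2000 bases, up to 50 tags), which gave the total tags and the tags per gene. The test was limma-trend (limma 3.58.1, R 4.3.3), two-sided, on log2(FPKM + 1) of the 9810 genes that averaged 1 FPKM or more. It was adjusted by Benjamini-Hochberg, at a threshold of 0.05. The test was also run on simulated data with independent noise in each library, which says nothing about libraries that vary together. The SE is moderated by limma. Log2 changes are ACSS2NLS minus EV, on a scale that understates changes of low genes.

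The 10 genes, the lists and the cell type markers were chosen with earlier results of these data known. Named besides the 10 were Acss2, in each list the 3 of smallest unadjusted p, the gene with the highest mean, the ligands and adaptors H2-T23, Raet1e, Ulbp1, H60b, Clec2d, Cdh1, Cx3cl1, Hcst and Tyrobp, and genes at 0. Ncr1, Zbtb16, Klri1, Klrb1f, Magohb and the other genes marked on the map of the complex were chosen after their values were seen. The marker lists of CD4 and regulatory T cells (summed 8.66 to 13.3 FPKM), dendritic cells (9.86 to 16.4), B cells (1.58 to 3.15) and stromal, endothelial and red blood cells (13.9 to 29.6) were summed alike. Promoters came from RefSeq (GRCm38.p6) and were aligned with Biopython 1.88. Alternatives tried were other pseudocounts, filters and scalings, a replicate block, a myeloid covariate, leaving out each library, the set without Nkg7 and Cx3cr1, and Klrc1 and Klrc2 summed.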

Additional observations from a re-analysis of the deposited data

How the results depend on the processing

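Styk1, Klrb1c and Cx3cr1 were lower in ACSS2NLS under every alternative run for them. Their ranges were -1.52 to -1.17, -1.01 to -0.25 and -0.63 to -0.13 on the log2 scale. For Styk1 and Klrb1c the groups were apart, so leaving out a library or reading within replicate numbers could not turn the sign. Nothing is read from the sign they kept. The sign of each of the other 7 genes turned under at least 1 alternative, leaving out a single library in each case, so no direction is given for them; Klrk1, for example, ranged from -0.25 to 0.17. Of the 10 genes, 4 to 8 had a lower mean when each library was left out in turn, and their median ranged from -0.22 to 0.087. The count was 5 with the myeloid covariate, 5 of 6 with a mean of at least 5 FPKM and 5 with scaling to T cell markers of at least 5 FPKM, an alternative chosen after seeing the data, as were the values within replicate numbers. Over all genes, 1 passed upward with no filter. With the myeloid covariate 222 passed upward and 200 downward, on 1 residual degree of freedom. Leaving out single libraries gave 0 to 9 genes downward, 9 of them without EV replicate 1, a fit with a lone EV library that is assumed to vary like the ACSS2NLS group. The replicate numbers were also used as a block: 229 genes then passed upward and 172 downward, on 1 residual degree of freedom. The labels do not say that a number marks a shared batch, and with 2 pairs the correlation of the same-numbered deviations from the group means, 0.58 over 9810 genes, is only a hint of pairing. Styk1 was among the genes passing with the block and with the covariate, a count that the choice of the genes touches. Depth limits Klrc2 most, at 27 to 63 tags per library.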
